A study of Mus musculus with 12 samples.

Results

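The arrays labelled resting B cells were compared with the arrays labelled activated T cells, grouped by their cell type labels. That both groups were low in mitosis genes was already known from these data when the pair was set. These are 6 of the 12 Affymetrix mouse gene arrays of the series, 3 per group. All arrays held total RNA of splenic lymphocytes from mice labelled C57Bl/6 x FVB, a cross of 2 inbred strains, and no allele or treatment beyond the culture is given. The labelled resting B arrays (replicates 1 to 3) are given as mature CD43-negative B cells used on day 0, straight from the spleen. The labelled activated T arrays (replicates 4 to 6) are given as B220-negative T cells kept in culture until day 4, with antibodies to CD3 and CD28 and with IL-2. The series also holds 3 arrays labelled activated B (day 4, αCD40 and IL-4) and 3 labelled resting T (day 0). The study's methods describe the resting B cells as what remained after depletion with antibodies that included CD5 and CD43. The sources used here do not give whether each array stands for a separate mouse or culture. The level of Xist, the RNA of the inactive X chromosome, differed between male and female readings within both groups, so the 3 arrays of a group did not all come from the same mouse, but 2 of each group could share one. P-values rest on the spread between arrays within each of the 4 labelled groups, estimated over all 12 arrays and moderated across genes.

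T cells recognise peptides on MHC molecules through the T cell receptor, which signals through the CD3 chains, the kinase ZAP70 and the adaptor LAT. B cells recognise free antigen through membrane immunoglobulin, which signals through CD79A and CD79B to the kinases SYK and BTK and the adaptor BLNK. Resting lymphocytes of both kinds are small cells in which mitosis genes are silent, and stimulation through the receptor with costimulation and cytokines drives them into the cell cycle within days.

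The lineage genes ran against the labels in both groups. Genes of the T cell receptor complex were mostly several log2 units higher in the labelled resting B arrays, and genes of the B cell receptor complex were likewise higher in the labelled activated T arrays. The mitosis genes were low in both groups. The groups are therefore named here by their labels throughout, as labelled resting B and labelled activated T, and every direction below is that of the deposited columns.

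Over 19937 genes, 3687 (18.5%) differed between the groups at an adjusted p under 0.05 in a limma fit of the deposited log2 values. Of these, 1929 (9.68% of the genes tested) were higher and 1758 (8.82%) were lower in labelled resting B, and 980 (4.92%) differed by at least 2-fold, 498 of them higher and 482 lower. Each count of list members below is to be read beside the shares of 9.68% higher and 8.82% lower. For 6238 genes (31.3%) the 3 arrays of one group did not overlap with those of the other. The median level was 5.63 to 5.68 log2 in each of the 6 arrays. The median log2 difference of all genes was -0.01, and the differences ran from 5.39 to -4.45. Pearson's r over all genes was 0.957 to 0.969 between arrays of the 2 groups and 0.992 to 0.994 between arrays of 1 group. These are descriptions across genes, which are not independent. In bulk RNA, fewer cells of a type and less RNA per cell cannot be told apart. A level at or below 5.21 log2, the 95th percentile of the olfactory receptor genes, was taken as background, and 154 of the 2-fold differences had 1 group at or below it, where the true difference may be larger.

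**Figure D1:**
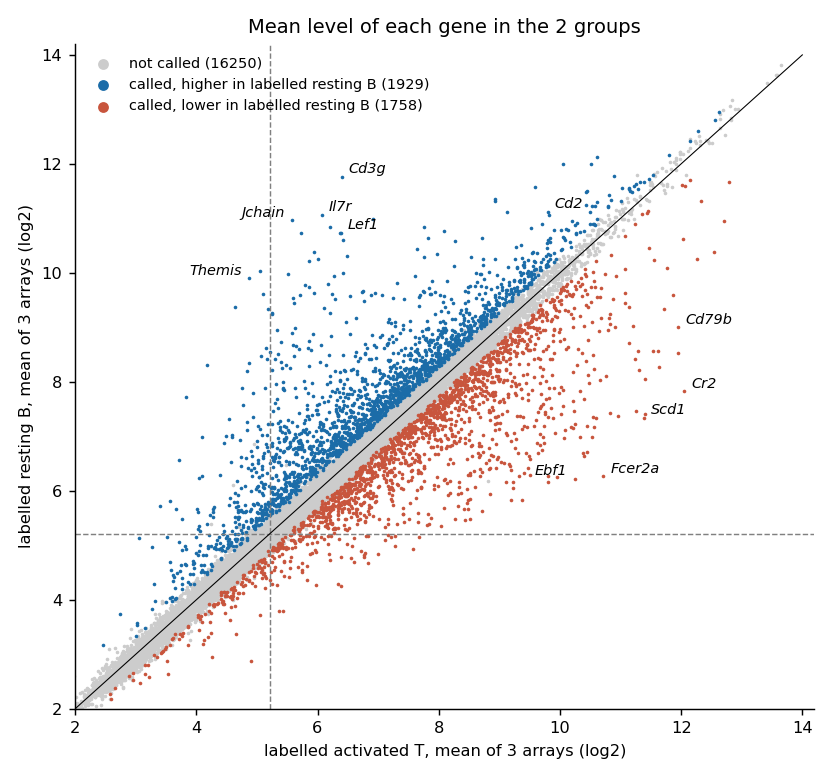
Mean level of each of 19937 genes in the labelled activated T arrays (x axis, log2, n = 3) and the labelled resting B arrays (y axis, log2, n = 3), coloured by the limma call. The solid line marks equal levels and the dashed lines mark the background of 5.21 log2. T cell genes such as Cd3g, Themis and Il7r sit far above the line, with Jchain, and B cell genes such as Cr2, Fcer2a and Ebf1 sit far below it.

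The 12 measured genes of the T cell receptor and its coreceptors were all higher in labelled resting B, where 9.68% of all genes were higher, with a median log2 difference of 4.04 against -0.01 over all genes. Cd3e, a signalling chain of the receptor, was at 10.82, 10.35 and 10.64 log2 in the labelled resting B arrays and at 6.36, 6.19 and 6.74 in the labelled activated T arrays, a difference of 4.18 ± 0.17 log2 (SE, n = 3 per group, limma adjusted p = 5.25e-11). Cd3g, another chain of the same complex, was at 11.69, 11.76 and 11.85 against 5.64, 5.98 and 7.57. This was the second largest difference of all genes in this direction, 5.37 ± 0.37, and replicate 6 of labelled activated T lay above its 2 fellows. Cd3d was at 9.90, 10.12 and 10.10 against 4.48, 5.07 and 5.58, and since the latter group averaged below background, the difference of 5.0 is a lower bound. Cd247, the zeta chain, differed by 2.97. Both coreceptors that split mature T cells into helper and cytotoxic cells were higher in labelled resting B. Cd4 was at 9.43, 9.53 and 9.65 against 5.33, 5.40 and 6.05, and Cd8a at 10.86, 11.12 and 10.99 against 6.52, 6.79 and 7.45. Cd8b1 differed by 4.35, the costimulatory receptor gene Cd28 by 4.48 and the surface glycoprotein gene Thy1 by 3.97. Cd5, whose product was among the targets of the depletion step of the B cell isolation, was at 9.73, 9.71 and 9.80 in labelled resting B and at 5.57, 5.81 and 6.20 in labelled activated T. Cd2, an adhesion receptor, was the exception in size. It was high in both groups, at 11.04, 11.19 and 11.12 against 10.67, 10.42 and 10.40, and differed by 0.62 ± 0.11 (adjusted p = 0.000357).

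The gene of CD43 itself, Spn, a sialoglycoprotein of T cells and other leukocytes, was looked up after these values were seen, since the label of the resting B arrays names it as absent. Spn was at 9.34, 9.22 and 9.53 log2 in the labelled resting B arrays and at 5.75, 5.97 and 6.60 in the labelled activated T arrays. The difference was 3.26 ± 0.17 (SE, limma adjusted p = 3.93e-10), with no overlap. B220 is an isoform of the Ptprc product, and the single gene-level value of Ptprc, 12.24 ± 0.11 against 12.11 ± 0.06 (SD, n = 3), does not separate isoforms.

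The 12 measured genes that carry the T cell receptor signal inside the cell were also all higher in labelled resting B, with a median of 3.63. Zap70, the kinase that binds the phosphorylated CD3 chains, was at 8.61, 8.72 and 8.87 against 5.44, 5.43 and 5.34. Lat, the membrane scaffold that ZAP70 phosphorylates, was at 10.79, 10.80 and 10.93 against 5.79, 6.04 and 6.80, a difference of 4.63. The groups were separated in both genes by far more than the spread within them. Prkcq, the protein kinase C of the T cell synapse, differed by 5.0 and Themis, a regulator of thymocyte selection, by 5.03, the latter as a lower bound. The smallest differences of this list were 1.54 for Sit1, an inhibitory adaptor, and 1.71 for the SRC-family kinase gene Fyn. Of the 11 measured T lineage transcription factors, 10 were higher and none lower. Lef1, a TCF-family factor, was at 10.77, 10.68 and 10.76 against 6.03, 6.16 and 6.92, a difference of 4.37 ± 0.16. Gata3, which directs helper cells of type 2, differed by at least 3.41, Bcl11b, which holds T cell identity, by 2.89, and Satb1, a chromatin organiser of thymocytes, by 1.05. Runx3, a factor of cytotoxic T cells, was at 7.92, 7.47 and 7.67 against 7.21, 7.39 and 7.23 and did not pass the test (0.41 ± 0.15, adjusted p = 0.0678), although its arrays did not overlap.

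**Figure D2:**
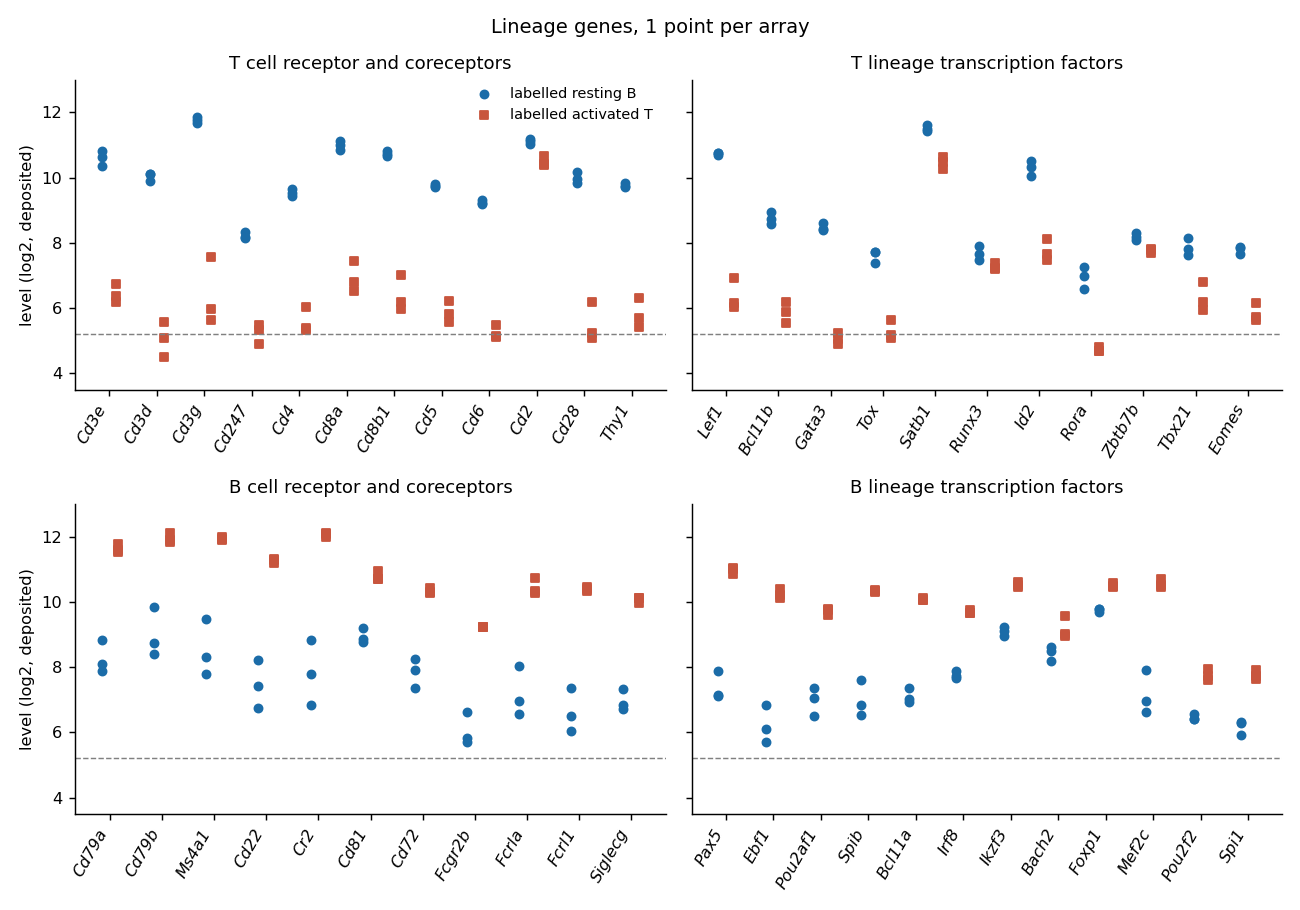
Level of each measured member of 4 lists (y axis, log2, deposited values), with 1 point per array, circles for labelled resting B and squares for labelled activated T. The dashed line is the background of 5.21 log2. T lineage genes lie higher in labelled resting B and B lineage genes higher in labelled activated T, and the labelled resting B arrays are spread more widely in the B cell receptor genes.

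The B cell receptor genes were the mirror image, with 11 of 11 measured members lower in labelled resting B, where 8.82% of all genes were lower, and a median of -3.26. Cd79a, the signalling chain that pairs with CD79B, was at 7.88, 8.85 and 8.09 in labelled resting B and at 11.79, 11.61 and 11.52 in labelled activated T, a difference of -3.37 ± 0.24 (adjusted p = 1.2e-08). Ms4a1, which encodes CD20, was at 7.78, 9.47 and 8.32 against 11.997, 11.895 and 11.945. Cr2, the complement receptor that lowers the threshold of the B cell receptor, was at 6.85, 8.85 and 7.78 against 12.07, 12.11 and 11.98, and its difference of -4.23 ± 0.33 was the largest of this list. In these 3 genes, replicate 2 of labelled resting B was the highest of its group, while the labelled activated T arrays lay close together. Cd22, an inhibitory lectin of B cells, differed by -3.80, and Cd81, a tetraspanin of the coreceptor, by -1.85, the smallest of the list. All 11 measured B cell receptor signalling genes were lower too, with a median of -3.22. Syk was at 6.90, 7.84 and 7.27 against 10.57, 10.67 and 10.56, and Btk at 5.87, 6.76 and 6.24 against 9.62, 9.51 and 9.39. The adaptor gene Blnk differed by -3.68, the scaffold gene Bank1 by -3.99 and the RAS activator gene Rasgrp3 by -3.70. Prkcb, a protein kinase C that is also used outside B cells, differed by -1.35 and Dapp1, a phosphoinositide-binding adaptor, by -1.10.

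All 12 measured B lineage transcription factors were lower in labelled resting B, with a median of -2.33. Pax5, which commits cells to the B lineage, was at 7.15, 7.89 and 7.10 against 11.03, 11.01 and 10.85, a difference of -3.58 ± 0.17. Ebf1, which acts with PAX5, was at 5.71, 6.83 and 6.11 against 10.21, 10.39 and 10.14, a difference of -4.03 ± 0.21. As in the receptor genes, replicate 2 was the highest of the labelled resting B arrays. Pou2af1, the coactivator of octamer-binding factors, differed by -2.74, and Spib, an ETS factor, by -3.34. Factors that T cells use as well differed less, with -0.77 for Foxp1 and -0.74 for Bach2.

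Promoters were searched for the binding letters of such factors, because these groups of genes moved together. In the 250 bases before the RefSeq start (GRCm38.p6) of 15613 genes, the octamer ATGCAAAT, on either strand, was present in 279 (1.79%), in 15 of the 373 genes at least 2-fold lower in labelled resting B (4.02%) and in 4 of the 371 at least 2-fold higher (1.08%). The palindrome of EBF factors, which is CCCNNGGGA preceded by a T, was present in 162 of all promoters (1.04%), in 14 of the lower genes (3.75%) and in 3 of the higher genes (0.809%). The TCF and LEF letters CTTTGAA were present in 727 of all promoters (4.66%), in 11 of the lower genes (2.95%) and in 20 of the higher genes (5.39%). These shares are descriptions with no test, and a match is not evidence of binding. Of the members of the lists described here, Blnk, Tlr9 and Prkcb are shown for the octamer, Cd22 for the EBF letters, and Bcl11b and Txk for the TCF and LEF letters, with the match in capitals and each sequence written 5′ to 3′ on the strand of the gene. Blnk (chr19:40994222-40994471, minus strand) and Txk (chr5:72752778-72753027, minus strand) hold the match in the reverse complement. The others are Tlr9 (chr9:106222348-106222597, plus strand), Prkcb (chr7:122288875-122289124, plus strand), Cd22 (chr7:30879029-30879278, minus strand) and Bcl11b (chr12:108003415-108003664, minus strand).
Blnk: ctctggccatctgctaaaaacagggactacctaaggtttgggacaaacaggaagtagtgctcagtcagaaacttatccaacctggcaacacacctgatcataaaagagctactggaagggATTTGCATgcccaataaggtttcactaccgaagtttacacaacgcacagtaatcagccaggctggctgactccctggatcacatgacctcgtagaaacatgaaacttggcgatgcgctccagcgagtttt
Tlr9: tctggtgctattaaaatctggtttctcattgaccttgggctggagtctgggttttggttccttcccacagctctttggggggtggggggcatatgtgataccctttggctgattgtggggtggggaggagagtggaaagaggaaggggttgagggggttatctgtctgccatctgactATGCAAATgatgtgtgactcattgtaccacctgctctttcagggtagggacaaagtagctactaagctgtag
Prkcb: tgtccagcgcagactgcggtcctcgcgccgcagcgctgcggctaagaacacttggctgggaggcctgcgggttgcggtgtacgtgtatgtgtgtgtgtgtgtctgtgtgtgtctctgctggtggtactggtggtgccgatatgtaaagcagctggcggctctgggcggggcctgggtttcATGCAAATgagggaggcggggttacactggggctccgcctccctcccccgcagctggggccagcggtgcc
Cd22: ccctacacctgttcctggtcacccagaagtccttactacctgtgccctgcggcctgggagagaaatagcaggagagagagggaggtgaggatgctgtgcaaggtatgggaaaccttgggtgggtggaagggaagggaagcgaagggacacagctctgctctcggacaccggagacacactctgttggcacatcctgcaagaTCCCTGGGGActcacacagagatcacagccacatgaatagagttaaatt
Bcl11b: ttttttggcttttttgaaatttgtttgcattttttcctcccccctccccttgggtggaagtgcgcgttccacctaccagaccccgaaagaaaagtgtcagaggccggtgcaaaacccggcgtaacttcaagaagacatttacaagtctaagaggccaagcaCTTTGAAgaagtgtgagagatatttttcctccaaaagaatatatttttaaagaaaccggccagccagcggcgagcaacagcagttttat
Txk: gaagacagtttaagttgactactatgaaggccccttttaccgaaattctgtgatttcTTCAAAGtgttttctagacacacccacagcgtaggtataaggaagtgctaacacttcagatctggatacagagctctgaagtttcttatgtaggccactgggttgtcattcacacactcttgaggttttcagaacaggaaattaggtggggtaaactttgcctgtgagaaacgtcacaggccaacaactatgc

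The octamer of Blnk lay 123 to 130 bases before the start, that of Tlr9 65 to 72 bases and that of Prkcb 63 to 70 bases. The EBF letters of Cd22 lay 40 to 49 bases before it. On the other side, CTTTGAA lay 83 to 89 bases before the start of Bcl11b and 187 to 193 bases before that of Txk, a TEC-family kinase of T cells that was 3.82 log2 higher in labelled resting B. The letters did not follow the direction in every gene, since CTTTGAA was also found before Ccr6 and Swap70, which were lower in labelled resting B. The promoter of Ccr6 also held the octamer, 61 to 68 bases before the start. CTTTGAA was found 98 to 104 bases before the start of Fas, which was higher in labelled resting B. A further 8 sets of letters were searched in the same way, 11 in all. CCCNNGGGA alone, which lies within the EBF palindrome, was present in 7.01% of the genes at least 2-fold higher and 10.5% of those at least 2-fold lower, beside 7.33% of all promoters. The RUNX letters TGTGGTT were at 7.01% and 5.09% in the same order, beside 4.28%. GAGGAAG, an ETS site, was at 18.6% and 16.9% beside 12.2%, and TTCCTCTT at 4.85% and 6.43% beside 3.19%. The E-box CAGGTG was at 22.9% and 21.4% beside 19.3%, and the GATA letters AGATAA at 8.63% and 9.38% beside 9.94%. A second TCF and LEF site, CTTTGATC, was at 0.539% and 0.804% beside 0.833%. A longer ETS site, ACCGGAAGT, was found in 4 of the 371 higher and 0 of the 373 lower genes, beside 1.24% of all promoters.

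Genes of antigen presentation and of innate sensing went with the B cell genes. In MHC class II presentation, 8 of 8 measured genes were lower in labelled resting B, with a median of -2.25. Cd74, the invariant chain, was at 10.16, 10.83 and 10.13 against 12.60, 12.49 and 12.52, and H2-Aa, a class II alpha chain, at 10.58, 11.48 and 10.81 against 12.82, 12.68 and 12.65. Ciita, the transactivator of these genes, differed by -2.74. The levels in labelled resting B stayed well above background, and replicate 2 was again the highest of that group. Of 12 measured Toll-like receptors and partners, 11 were lower and 1 was higher. Cd180, a relative of TLR4 on B cells, differed by -3.19 and its partner Ly86 by -3.08. Tlr9, the endosomal receptor of DNA, was at 6.52, 6.52 and 6.15 against 8.99, 8.85 and 8.66, and Unc93b1, which carries endosomal receptors to their place, differed by -2.65. Myd88, the adaptor that most of these receptors share, ran the other way by 0.39.

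Among genes of the marginal zone and follicular B cell subsets, 7 of 9 were lower in labelled resting B, 1 was higher and 1 did not pass, with a median of -2.32. Fcer2a, which encodes the low-affinity IgE receptor CD23 of follicular B cells, had the largest negative difference of all genes. It was at 5.62, 7.60 and 5.58 against 10.95, 10.58 and 10.60, a difference of -4.45 ± 0.35 (SE, adjusted p = 5.37e-08). S1pr3, a receptor of marginal zone B cells, differed by -2.82 and Notch2, which specifies them, by -1.82. Genes of both subsets were among those lower in labelled resting B. Cd9 ran the other way (0.96), and Dtx1 was at 9.61, 9.17 and 9.54 against 9.08, 9.38 and 9.05.

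Of 9 immunoglobulin and joining chain genes in the list, 4 were measured, of which 1 was higher in labelled resting B (Jchain), 2 were lower (Igha and Ighg3) and 1 did not pass (Ighm), with a median of -0.35. Jchain, whose product links immunoglobulin into polymers, had the largest positive difference of all genes. It was at 10.62, 11.13 and 11.16 log2 in labelled resting B and at 5.91, 5.57 and 5.24 in labelled activated T, a difference of 5.39 ± 0.30 (SE, n = 3 per group, limma adjusted p = 9.3e-10). The other plasma cell genes did not move with it in size. Prdm1, which drives plasma cell fate, differed by 0.76 and the secretory pathway gene Derl3 by 0.41, whereas Irf4 differed by -2.34 and the chaperone gene Mzb1 by -1.76. Xbp1 was at 8.36, 8.98 and 8.88 against 8.85, 8.82 and 9.10, and Sdc1 (CD138) and Tnfrsf17 (BCMA) did not pass the test either. Ighm, the constant region of IgM, was at 8.45, 8.88 and 9.09 against 8.76, 8.63 and 8.63, which overlap (0.14 ± 0.16, adjusted p = 0.665). Igha differed by -0.84, a call that was lost in 5 of the alternatives, among them those without replicate 1 of labelled resting B (-0.45), replicate 5 (-0.85) and replicate 6 (-0.80) of labelled activated T, and Ighg3 by -1.47, with labelled resting B at background. Probes of immunoglobulin genes may share sequence with related segments.

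Receptors for position and survival signals were divided between the groups. Of 11 homing and egress genes, 4 were higher in labelled resting B, 4 lower and 3 not called, with a median of 0.09. Of all genes, 9.68% were higher and 8.82% lower. The B cell follicle receptor gene Cxcr5 was at 5.12, 6.55 and 5.83 against 9.51, 9.27 and 9.37, and the gene of the CCL20 receptor, Ccr6, differed by -2.74. On the other side, Cxcr3, a receptor of effector T cells, was at 9.28, 9.76 and 9.95 against 6.49, 6.60 and 7.15, and Ccr9, the gut homing receptor, differed by 2.90. The genes that keep resting lymphocytes in circulation were high in both groups. S1pr1, the egress receptor, was at 10.91, 10.78 and 11.03 against 10.87, 10.84 and 10.79, and Klf2, the factor that drives it, at 10.07, 9.93 and 9.95 against 9.81, 9.43 and 9.66 (0.35 ± 0.12, adjusted p = 0.0587). Klf2 was called in several of the alternatives, at a limma adjusted p of 0.0258 to 0.0468. The lymph node entry receptor Ccr7 was high in both as well and differed by 0.65. Of 10 integrin subunits, 6 were higher and 1 (Itgav) lower, and the lower count was 0 without any 1 of the labelled resting B arrays or replicate 5 or 6 of labelled activated T. Itgb2, the beta chain of LFA-1, was higher by 1.30 and Itga6 by 2.34. Itgae, which marks intraepithelial T cells, differed by at least 2.42.

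Of 12 cytokine receptor genes, 8 were higher in labelled resting B and 2 lower, with a median of 1.0. Il7r, the survival receptor of resting T cells, was at 10.92, 10.95 and 11.33 against 5.44, 5.84 and 6.93, a difference of 5.0 ± 0.25. Il2rb, which serves IL-2 and IL-15, differed by 3.04 and Il18r1 by at least 3.47. Il10ra went the other way, by -2.09. In the TNF receptor family, 6 genes were higher and 3 lower. The 3 lower ones were the receptors of B cells for BAFF, APRIL and CD40 ligand, with -2.71 for Tnfrsf13c, -1.86 for Tnfrsf13b and -2.61 for Cd40. Cd27, a costimulatory receptor of T cells, was at 9.29, 9.47 and 9.55 against 5.55, 5.45 and 5.82, a difference of 3.83. In the GIMAP family of lymphocyte GTPases, 4 of 8 were higher, by 1.20 at most (Gimap3), and 4 did not pass.

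**Figure D3:**
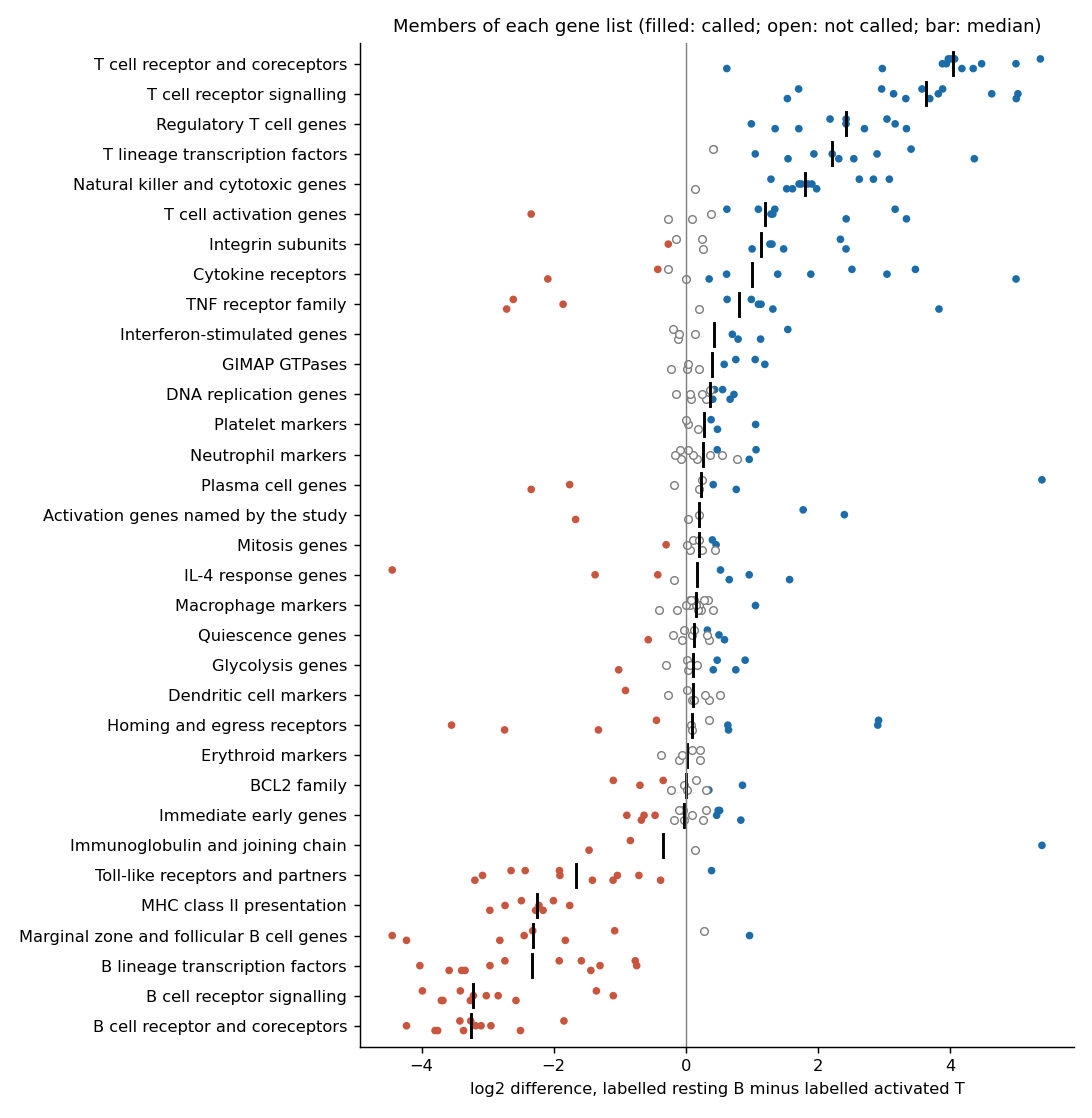
Log2 difference of every measured member of the gene lists, other than the sex-linked genes (x axis, labelled resting B minus labelled activated T), with 1 point per gene, filled where called by limma and open where not. Bars mark the list medians, which run from 4.04 for the T cell receptor genes to -3.26 for the B cell receptor genes, with most marker lists of other cells near 0.

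Genes of further lymphocyte subsets were also higher in labelled resting B. All 10 regulatory T cell genes were higher, with a median of 2.43. Foxp3, their defining factor, was at 7.08, 7.06 and 7.0 against 5.52, 5.56 and 5.99, a difference of 1.35 ± 0.13, and Ctla4, an inhibitory receptor, differed by 3.17. Il2ra, Ctla4, Icos, Tnfrsf18, Itgae and Il2rb of this list also belong to other lists described here, so the counts are not independent. Of 12 natural killer and cytotoxic genes, 11 were higher and Gzmk was at or below background in both groups, with a median of 1.80. Klrd1, a receptor of natural killer cells, was at 8.80, 9.19 and 9.31 against 5.75, 6.46 and 7.21, and Nkg7, of cytotoxic granules, differed by 3.08. Ncr1, an activating receptor of natural killer cells, was at 7.13, 8.48 and 8.27 against 5.56, 6.24 and 7.50, which overlap (1.53 ± 0.37, adjusted p = 0.00626, and 0.0691 with an intensity trend and robust settings). The call of Gzmb, another granzyme, at 1.29, was lost in the same setting (limma adjusted p = 0.106) and without replicate 2 of labelled resting B (1.18) or replicate 4 of labelled activated T (0.99). The granzyme gene Gzma also overlapped, with replicate 6 of labelled activated T at 8.96 above replicate 1 of labelled resting B at 8.90. The mean of the list was 5.84, 6.28 and 6.95 in the labelled activated T arrays, and that of the T cell receptor list was 5.94, 6.08 and 6.70 in the same arrays, with replicate 6 the highest in both.

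Neither group had the levels of mitosis genes that the other 2 labelled groups of the series had. The mean of 9 mitosis genes was 5.76 to 6.09 log2 in the labelled resting B arrays and 5.46 to 6.09 in the labelled activated T arrays, beside 9.73 to 9.81 in labelled activated B and 9.21 to 9.34 in labelled resting T. The names non-dividing pair and dividing pair used below rest on these same values. Mki67, which labels cycling cells, was at 6.17, 6.51 and 7.0 in labelled resting B and at 5.80, 6.27 and 6.88 in labelled activated T, with no detectable difference (0.24 ± 0.21, adjusted p = 0.546). Of the 9 genes, 2 were higher (Top2a and Plk1), 1 was lower (Aurkb) and 6 did not pass. Over all genes, 9.68% were higher and 8.82% lower. The count of higher mitosis genes fell to 0 in a fit of the 6 compared arrays alone. There, Top2a had an adjusted p of 0.0903 and Plk1 of 0.0775 (limma). With all probe sets of a gene averaged, Top2a differed by 0.25 (limma adjusted p = 0.111) in place of 0.46. Aurkb differed by -0.30 (limma adjusted p = 0.0306), and the count of lower genes was 0 without any 1 of the 6 compared arrays, with a term for sex and with arrays centred on the median. Without replicate 2 of labelled resting B, replicate 4 or replicate 5 of labelled activated T, the difference of Top2a was 0.42, 0.39 and 0.39 and that of Plk1 was 0.28, 0.38 and 0.30, none of them called. The call of Top2a was also lost without replicate 3 of labelled resting B, at 0.30, and, at its full difference of 0.46, without any 1 array of labelled activated B or replicate 5 of labelled resting T, which share the estimate of the spread. Of 11 DNA replication genes, 5 were higher and none lower, by 0.73 at most (Mcm6). The call of Rrm2, at 0.67, was lost in the fit of the compared arrays alone (limma adjusted p = 0.0651). It was also lost with an intensity trend and robust settings (limma adjusted p = 0.0728). The same held without replicate 2 (0.68) or 3 (0.55) of labelled resting B or 4 (0.48) or 5 (0.53) of labelled activated T. Mcm2 and Mcm3, which were not called, gained the call in some alternatives. The helicase subunit gene Mcm4 was at 8.07, 8.32 and 8.46 against 7.75, 7.68 and 7.75.

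The T cell activation genes, like the T cell receptor genes, were mostly higher in labelled resting B. The mean of the T cell receptor list was 10.09 to 10.22 log2 in labelled resting B and 5.94 to 6.70 in labelled activated T. In a list of T cell genes, activation therefore cannot be told apart from T cell content here. Of 12 T cell activation genes, 8 were higher in labelled resting B, 1 was lower and 3 did not pass, with a median of 1.19. Il2ra, the inducible chain of the IL-2 receptor, was at 7.29, 7.31 and 7.20 against 4.58, 4.79 and 5.15, the latter below background, and Icos, a costimulatory receptor, differed by at least 3.34. Ifng, the effector cytokine, was at 6.42, 6.83 and 6.70 against 5.28, 5.01 and 5.61, and Il2 was at background in every array of both groups. Irf4 was the gene that was lower. Of the activation genes that the study names, Fas, a death receptor, was at 7.24, 7.32 and 7.32 against 5.44, 5.64 and 5.48, and the cyclin gene Ccnd2 differed by 2.40. The IL-5 receptor gene Il5ra differed by -1.67, with labelled resting B at background, and Cd44 (0.20) and Myc (0.03) did not pass. Of 8 IL-4 response genes, 4 were higher and 3 lower, with Socs2 at a difference of at least 1.57 and Bcl6 at -1.37. Of 11 quiescence genes, 3 were higher, 1 lower and 7 not called, beside 9.68% higher and 8.82% lower over all genes. The count of higher genes was 5 in 5 of the alternatives, and that of lower genes was 0 in the fit of the compared arrays alone and without replicate 1 or 2 of labelled resting B or 5 or 6 of labelled activated T. Foxo1, Btg1 and Klf4 overlapped between the groups. The 15 immediate early genes, induced within minutes to hours of a stimulus or of handling, were split into 4 higher, 4 lower and 7 not called, with a median of -0.02. Fos was at 8.64, 9.0 and 8.56 against 9.26, 8.59 and 8.42, Fosb differed by -0.89 and Nr4a3 by at least 0.83.

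Markers of other spleen cells were read for the whole of each list. Over all genes, 9.68% were higher and 8.82% lower in labelled resting B. Counts of 1 member in these lists lie near those shares. Of 15 macrophage markers, 1 was higher in labelled resting B (Lyz2) and 14 did not pass, with a median of 0.15. The list mean was 6.85, 7.45 and 6.55 in labelled resting B and 7.15, 6.48 and 6.70 in labelled activated T, so that replicates 2 and 4 stood highest, beside 4.69 to 4.83 in labelled activated B and 5.37 to 5.48 in labelled resting T. The call of Lyz2, at 1.04, was lost without replicate 2 (0.84) or 3 (0.98) of labelled resting B and without replicate 4 (0.71) or 5 (0.94) of labelled activated T. At its full difference it was also lost with an intensity trend and robust settings (limma adjusted p = 0.141). The same held in the fit of the compared arrays alone (limma adjusted p = 0.0506). C1qa, a complement gene of tissue macrophages, was at 7.15, 7.82 and 6.57 against 7.58, 6.36 and 6.77. Replicate 2 of labelled resting B was highest in both the macrophage and the B cell receptor genes, whose list mean was 7.18, 8.37 and 7.56 in that group. The part of other cells in the lineage differences was not tested. Without replicate 2, 11 of 11 measured B cell receptor genes were lower. Leaving out the array with the highest list mean of the lower group widens the list difference. This count therefore says nothing on the part of other cells. Of 12 neutrophil markers, 7 were at or below background in both groups, S100a8 and Ly6g among them, and 3 were higher. The largest of these was Mpo, by 1.06, a call lost without replicate 4 (1.03) or 5 (0.97) of labelled activated T. It was also lost with an intensity trend and robust settings (limma adjusted p = 0.0965). The count of 3 became 5 without replicate 1 of labelled resting B and 6 with a term for sex. Of 6 platelet markers 3 were higher (Ppbp by 1.06), of 8 dendritic cell markers 1 was lower (Siglech, at -0.93), and none of 6 erythroid markers passed. Xist was at 4.00, 3.91 and 10.62 in labelled resting B and at 4.04, 11.24 and 11.15 in labelled activated T, so that 1 array of the former and 2 of the latter read as female, while the sources used here give no sex. With a term for sex, 3561 genes were called.

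**Figure D4:**
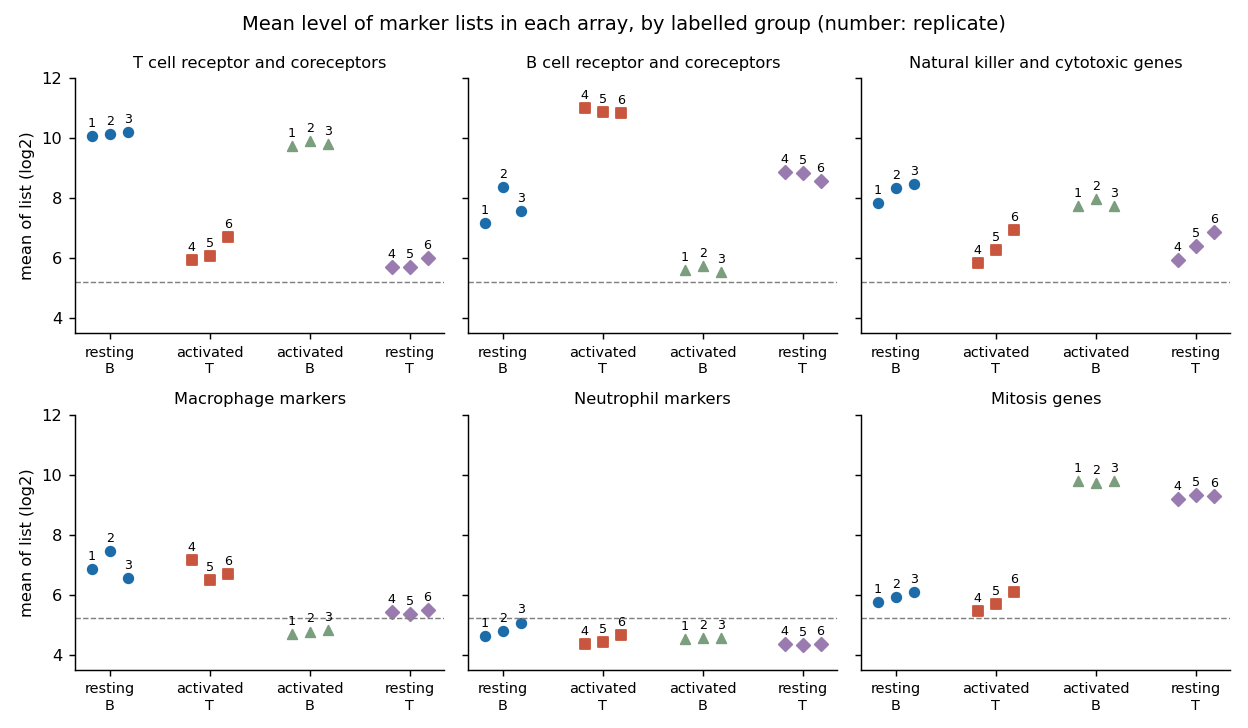
Mean level of the measured members of 6 lists in each of the 12 arrays (y axis, log2), by labelled group, with the replicate number above each point and the background of 5.21 log2 dashed. The T and B cell receptor lists separate labelled resting B from labelled activated T, the mitosis list does not, and replicate 2 of labelled resting B is the highest of its group in the B cell receptor and macrophage lists.

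Outside the lists, the 15 largest differences in each direction held further genes. Higher in labelled resting B were Slfn1, a growth-regulating gene of T cells, at 9.44, 9.21 and 9.46 against 4.32, 4.65 and 4.95, Cd96, an adhesion receptor of T and natural killer cells, by at least 4.52, Emb, by 4.44, Prkch, by 4.36, and Ms4a4b, by 4.24. Lower in labelled resting B was Scd1, the stearoyl-CoA desaturase, at 6.68, 8.15 and 7.19 against 11.27, 11.43 and 11.44, a difference of -4.04 ± 0.24. Lrrk2, a kinase, differed by -3.75, Rasgef1b by -3.65, Serpinb1a by -3.54 and 6330407A03Rik by -3.54.

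The other pair of labelled groups, labelled activated B minus labelled resting T, shares no array with this comparison and set 2 groups with high mitosis genes against each other. In that pair 4579 genes were called, and 2131 genes were called in both pairs, 1858 of them in the same direction. These were 50.4% of the calls of the non-dividing pair and 40.6% of the calls of the dividing pair. The difference between the 2 comparisons was itself past the threshold for 2924 genes (14.7%), 1326 of them with a larger value in the non-dividing pair and 1598 with a smaller one. T cell receptor genes had medians of 4.04 and 3.99 in the 2 pairs, and the test of the difference passed for 2 of 12, Cd2 (-2.90) and Thy1 (2.12), a share near the 14.7% of all genes. Other T cell lists passed more often. These were 5 of 12 T cell receptor signalling genes (medians 3.63 and 3.29), 6 of 11 T lineage transcription factors (2.22 and 0.98) and 7 of 10 regulatory T cell genes (2.43 and 2.78). The test passed for 7 of 8 MHC class II genes, all with a difference of smaller size in the non-dividing pair, where the median was -2.25 against -4.87 in the dividing pair. H2-Aa differed by -1.76 in the first and -6.73 in the second. Of 11 B cell receptor genes, 10 passed, 4 with a smaller difference in the non-dividing pair (Ms4a1, Cd79a, Cd79b and Cd22) and 6 with a larger one, among them Cr2 (-4.23 against -2.29) and Fcrl1 (-3.76 against -1.61). Of 12 T cell activation genes, 8 had a lower value in the non-dividing pair and 1 a higher one, with medians of 1.19 and 3.21.

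**Figure D5:**
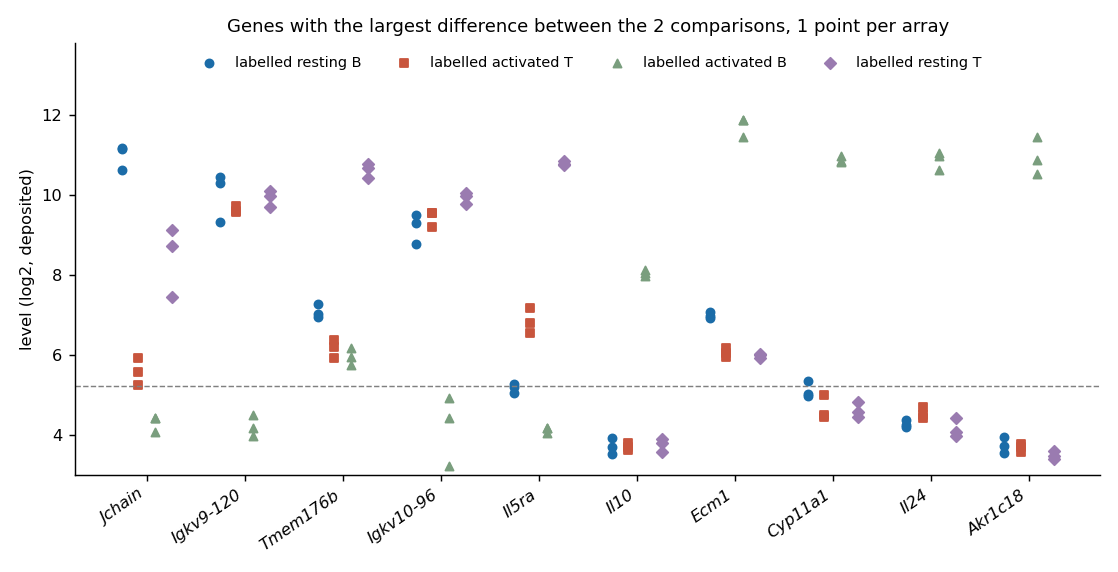
Level of the 10 genes with the largest difference between the non-dividing and the dividing comparison (y axis, log2), with 1 point per array for each of the 4 labelled groups and the background of 5.21 log2 dashed. Jchain is highest in labelled resting B, Il5ra and Tmem176b in labelled resting T, and Il10, Ecm1, Cyp11a1, Il24 and Akr1c18 in labelled activated B.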

How the data were processed

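The deposited values are log2 levels per probe set. The submitters' processing notes name RMA, of a version not given in the sources used here, by which the authors corrected the background, gave all arrays the same distribution and summarised the probes of each set. Such values hide a shift shared by most genes, and compression at low levels understates large differences. The number of arrays limits the precision. Of 34760 probe sets, 21640 had 1 gene symbol, 1321 several and 11799 none here, and 21553 of those with 1 symbol matched a RefSeq gene table. The probe set with the highest mean was taken for each of 954 genes with several, which gave 19937 genes. Some genes are not analysed here. At most 0.069% of values were identical between 2 arrays, and 0 columns had no sample.

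A limma fit (version 3.58.1, R 4.3.3) over all 12 arrays gave every one of the 4 labelled groups its own mean, with 8 residual and 7.8 prior degrees of freedom. P-values were adjusted over all genes (Benjamini-Hochberg) and called under 0.05. Members and lists were chosen with earlier results of these data known, so lists are described by counts and medians. Some genes belong to more than 1 list. The text names the 15 largest differences of each sign without overlap between arrays, the first 4 and the 3 most different members of each list, the 5 largest of each sign in the difference between comparisons, and genes the study names. Other list members, Spn and Ptprc were named after their values were seen. The fit was also run on simulated data of 19937 genes with independent noise. In these, 50 genes were changed by 0.5 log2, 100 by 1 and 50 by 2, all of them above background. It called 60%, 95% and 98% of these genes, and 14 of its 188 calls were false. Far fewer genes were changed than the real comparison called, so these rates need not hold for it. The alternatives were array weights, a term for sex, a random replicate block, a fit of the 6 compared arrays alone, eBayes with trend and robust options, quantile normalization, centring by array median or 75th percentile, averaged or separate probe sets, 2 filters against dim genes, and leaving out each array. Promoter letters came from RefSeq tables of GRCm38.p6, read on both strands. Python 3.11.15 was used for the tables (pandas 2.3.3, numpy 2.4.6) and the figures (matplotlib 3.10.9).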

Additional observations from a re-analysis of the deposited data

Results flagged for a closer look

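The labelled B to T difference was not the same in the non-dividing pair (labelled resting B minus labelled activated T) and in the dividing pair (labelled activated B minus labelled resting T), by a limma test of the difference of the 2 differences that called 2924 genes. Among the named genes, Jchain gave a value of 9.51 log2 in this test, since its difference was 5.39 in the non-dividing pair and -4.12 in the dividing pair, a change of direction. The kappa variable genes Igkv9-120 (6.11) and Igkv10-96 (5.49) did not pass in the non-dividing pair, where their arrays were all at high levels, and differed by -5.72 and -5.74 in the dividing pair. Tmem176b, a membrane protein gene, had a value of 5.58 and Il5ra a value of 4.99. In the opposite direction, the progesterone-metabolising enzyme gene Akr1c18 had a value of -7.41, the cytokine gene Il24 -7.00, the steroid synthesis gene Cyp11a1 -5.82, the matrix gene Ecm1 -4.82 and the cytokine gene Il10 -4.29. Akr1c18, Il24, Cyp11a1 and Il10 were at or below background in both non-dividing groups.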

How the results depend on the processing

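Under the alternatives that keep 1 value per gene the comparison called 3108 to 4120 genes against 3687, and with every probe set on its own it called 4527 probe sets, which are more numerous than genes. The 2-fold count and the count for the difference between the comparisons also stayed within 1.5 times of the reported values. With the replicate block (random), 3688 genes were called, at an estimated correlation of 0.0033. The groups compared share no replicate number, so the numbers give no pairing of their arrays. Whether arrays of the 2 groups share a mouse is not given in the sources used here. A difference between replicates 1 to 3 and replicates 4 to 6 cannot be told apart from the difference between the groups. Of the calls, 82.0% to 99.1% were kept in the same direction when 1 array was left out and at least 90.3% under the other alternatives that keep 1 value per gene. Among the genes named by the rules given above, 139 were called, and 12 of these lost the call in at least 1 alternative. They were Bcl2l11, Cyp11a1, Gzmb, Igha, Itga2b, Lyz2, Mpo, Ncr1, Plk1, Rrm2, Top2a and Tsc22d3. A further 15 that were not called gained the call, and none reversed. Genes named only after their values were seen are outside these counts. Aurkb and Itgav are among them, and their calls were also lost in the alternatives described above. Of 68 counts of list members called in 1 direction, 51 stayed within 1.5 times of the reported count in all 24 alternatives. The others, all reported counts of 3 or fewer, were the higher and lower counts of macrophage, dendritic cell, erythroid, mitosis and quiescence genes, the higher counts of marginal zone and follicular, neutrophil and BCL2 family genes, and the lower counts of immunoglobulin, integrin, T cell activation and glycolysis genes. Among these, leaving out replicate 2 of labelled resting B gave 2 higher marginal zone and follicular genes and 2 lower markers each of macrophages and dendritic cells, leaving out replicate 4 of labelled activated T gave 2 higher macrophage markers and 2 lower T cell activation genes, and leaving out its replicate 6 gave 2 higher erythroid markers, 1 higher dendritic cell marker and 2 lower glycolysis genes. The higher dendritic cell count was also 1 without replicate 1 of labelled resting B or of labelled activated B, and there was 1 lower erythroid marker without replicate 5 of labelled activated T. Centring on the median moved the share of higher calls from 52.3% to 56.6%. Signal near background limits what can be said of dim genes.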

Other observations

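In the BCL2 family of survival and death genes, 2 of 10 genes were higher, 3 lower and 5 not called in labelled resting B against labelled activated T. Over all genes, 9.68% were higher and 8.82% lower. The count of higher BCL2 family genes was 1 without replicate 3 of labelled resting B or replicate 4 or 6 of labelled activated T. It was also 1 without replicate 3 of labelled activated B or replicate 5 of labelled resting T. Bcl2l1, which encodes the survival protein BCL-XL, was at 7.02, 6.88 and 7.23 against 5.99, 6.04 and 6.52 (0.86 ± 0.15), Mcl1, another survival gene, differed by -0.34, and the death genes Bid and Bmf by -1.10 and -0.69. Bcl2 itself was at 9.39, 9.31 and 9.56 against 9.05, 9.24 and 9.05 and did not pass (0.31, limma adjusted p = 0.0517), but was called in 11 of the 24 alternatives, at 0.0207 to 0.0459.

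Of 8 interferon-stimulated genes, 4 were higher and none lower, with a median of 0.42. Ifit2 was at 6.86, 7.08 and 7.30 against 5.46, 5.51 and 5.64, a difference of 1.54, and Irf7 differed by 0.70, while Mx1 and Ifit3 were at or below background in both groups. Of 10 glycolysis genes, 4 were higher, 1 lower and 5 not called, beside 9.68% higher and 8.82% lower over all genes. The 2 glucose transporters did not move together, since Slc2a1 differed by -1.02 and Slc2a3 by 0.17, which did not pass. Ldha, the lactate dehydrogenase of rapidly glycolysing cells, differed by 0.76.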
